A study of Danio rerio with 8 samples.

Results

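Genes of the Notch pathway and the hairy family were followed in adult zebrafish retinas that lacked functional *bbs2*. The set was chosen with earlier results of these data known. Its members were defined by name: Notch receptors, Delta and Jagged ligands, Fringe, Numb, Deltex, Mastermind-like and RBPJ genes, and every *her* and *hey* gene of the count table. This gave 48 genes out of 32520, under 47 symbols, because the symbol *her4.2* stood for 2 gene identifiers. The tested fish were *bbs2* -/- homozygotes and the controls were their *bbs2* +/+ wild-type siblings, both of 6 months post-fertilization (mpf), of both sexes, from crosses of heterozygous carriers, and dark-adapted overnight for 16 to 20 h. Each genotype had 4 samples, each a pool of 2 retinas, and the retinal pigment epithelium was left behind as far as dissection allowed. The loss of *bbs2* was germline, so that every cell of the fish carried it, and nothing in these bulk libraries separates one retinal cell type from another. *bbs2* encodes a subunit of the BBSome, a complex that moves membrane proteins in cilia, and its loss leads to a slow loss of photoreceptors. The study asked how the retina responds while that loss is under way.

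Notch signaling passes between neighbouring cells. A Delta or Jagged ligand on one cell binds a Notch receptor on the next, the receptor is cut at the membrane, and its intracellular domain enters the nucleus, where it joins RBPJ and a Mastermind-like coactivator and switches on repressors of the *her* and *hey* families. Fringe enzymes add sugars to the receptor and so tune which ligand it responds to. In the zebrafish retina, Notch activity holds Müller glia in a quiescent state, and it restrains proneural genes such as *ascl1a* in progenitors.

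Total counts ran between 7289910 and 11496801 in the mutant libraries and between 6279179 and 8442827 in the wild-type libraries. The targeted gene *bbs2* had 28.4, 27.3, 28.8 and 28.6 CPM (reads of a gene scaled to a common library total) in mutants 1 to 4 and 39.8, 45.5, 42.6 and 42.8 CPM in wild-type 1 to 4, a log2 fold change of -0.59 without overlap (edgeR adjusted p = 8.82e-05). The tissue matched its label, with the rod opsin *rho* at 19600 ± 2550 CPM in mutants and 13000 ± 2250 CPM in wild-type (SD, n = 4 each). Of 11 tested rod genes, 2 were higher in mutants (*rho* and *nr2e3*) and 1 was lower (*pde6b*) at an edgeR adjusted p under 0.05. Over all tested genes these shares were 15.2% and 13.0%. The cone transducin gene *gnat2* had 906 ± 102 CPM in mutants and 2710 ± 143 CPM in wild-type. RNA of pigment epithelium genes was found in both genotypes at unequal levels: all 14 tested genes of a pigment epithelium marker list were higher in mutants, and their summed level was 1410 to 2010 CPM in mutants against 73.5 to 212 CPM in wild-type. All 11 tested microglia genes were higher too, with sums of 220 to 305 CPM in mutants and 58.9 to 83.7 CPM in wild-type. Of all tested genes, 15.2% were higher in mutants at the same threshold (edgeR adjusted p under 0.05). In bulk RNA, fewer cells of a type and less RNA per cell cannot be told apart, and the same holds for more cells and more RNA.

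Across the Notch and hairy genes, most called changes were increases. Of these 13 increases, 3 were receptors, 3 Jagged ligands and 2 Fringe genes, and the others were *dla*, *maml1*, *rbpja*, *dtx4b* and *her9*. Of the 48 genes, 29 had enough counts to be tested and 19 did not. Among the 29, 13 were upregulated and 5 were downregulated in mutants at a Benjamini-Hochberg adjusted p under 0.05 in the edgeR quasi-likelihood test over all 17144 tested genes, and 11 were not called. That is 62.1% of the tested members, whereas 28.1% of all tested genes were called (15.2% higher and 13.0% lower in mutants). The filter admits a low gene through whichever genotype expresses it, and *dla* and *mfng* passed it through the mutant libraries alone. *jag1a* had 4 mutant libraries and 1 wild-type library over the filter level, and *dld* and *her15.1* each had 4 and 2. Of the 23 members that had 10 counts or more in each of the 8 libraries, 15 were called, 10 up and 5 down. Over all genes that reached this count in each library, 26.7% were called. The CPM ranges of the genotypes did not overlap for 15 of the 29 members (51.7%), against 29.3% of all tested genes. Scaling by library totals in place of trimmed means (TMM) shifted the median log2 fold change of all genes to 0.09, against -0.01, and raised the share of calls that were increases to 71.3%, against 54%. Under that scaling 13 members were up and 3 were down.

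**Figure D1:**
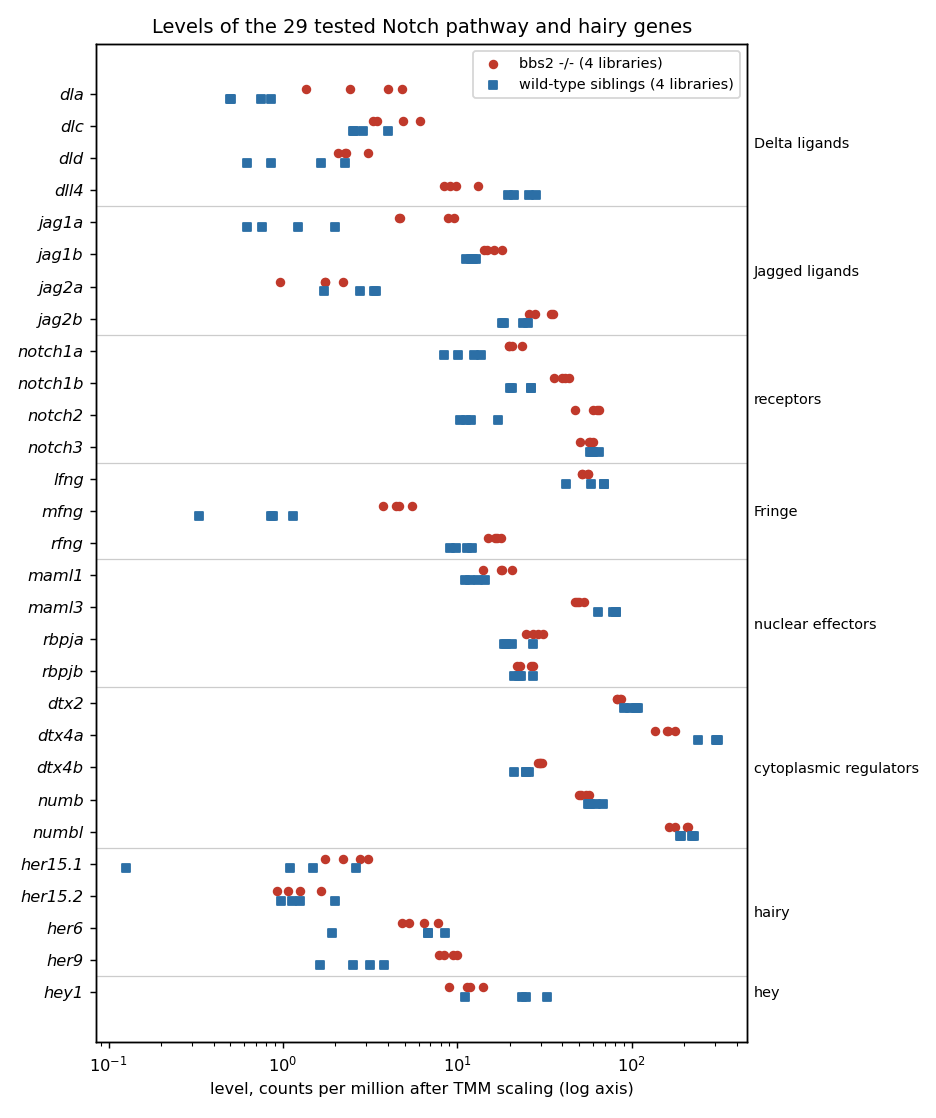
Levels of the 29 tested genes in each library, as CPM after TMM scaling on a log axis, with the 4 *bbs2* -/- libraries as circles above the 4 wild-type libraries as squares and genes grouped by role. Circles and squares were fully apart for 15 genes, among them *notch2*, *jag1a*, *mfng*, *dla*, *dll4*, *dtx4a* and *her9*.

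**Figure D2:**
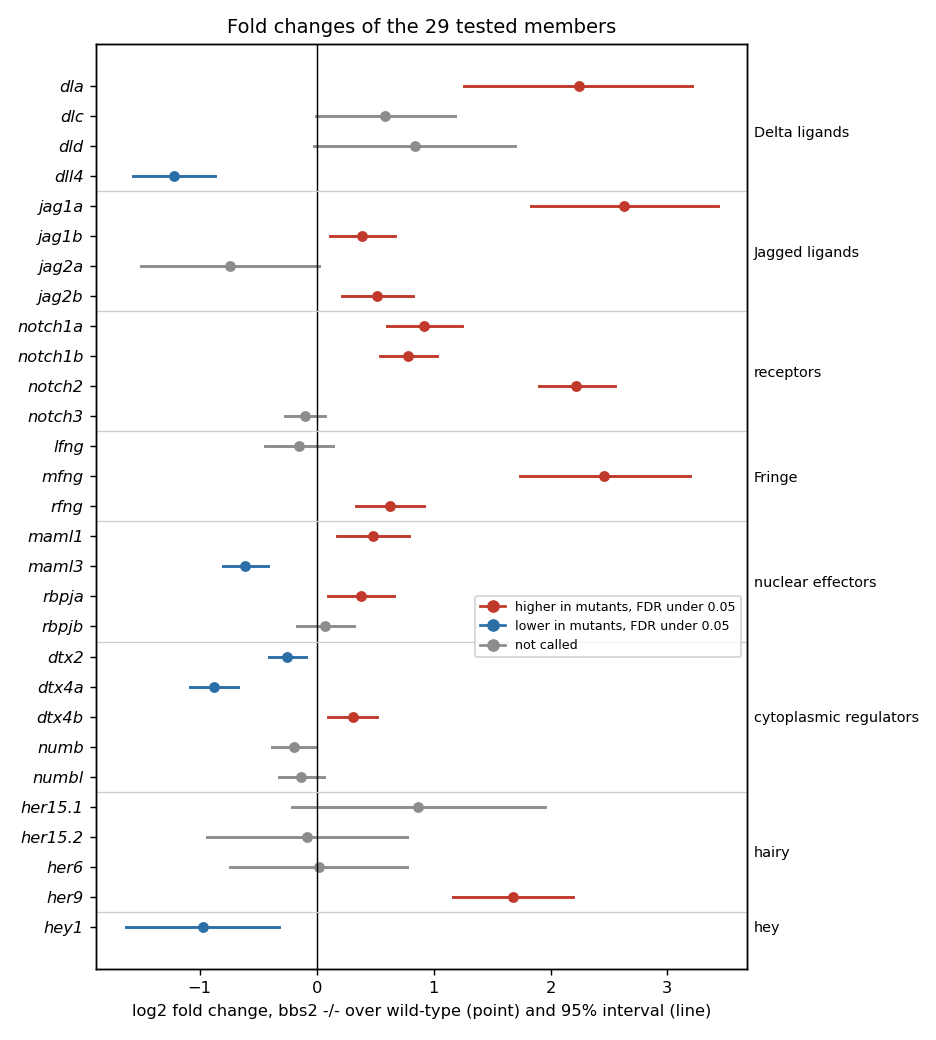
Log2 fold change of *bbs2* -/- over wild-type for the 29 tested genes, each with its 95% interval, by role. The largest increases were those of *jag1a* (2.63), *mfng* (2.46), *dla* (2.24), *notch2* (2.22) and *her9* (1.68), and the largest called decrease was that of *dll4* (-1.22). The intervals of these increases overlapped one another, and *jag1a*, *mfng* and *dla* had few counts in wild-type.

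Among the Delta ligands, the changes went in opposite directions. *dla* (ENSDARG00000010791), a Delta ligand of neural progenitors, was low in both genotypes, with 4.83, 1.35, 4.00 and 2.41 CPM in mutants 1 to 4 and 0.497, 0.751, 0.854 and 0.505 CPM in wild-type 1 to 4. Every mutant library lay above every wild-type library, and *dla* rose by 2.24 ± 0.46 on the log2 scale (SE, adjusted p = 0.00168). With 3, 6, 7 and 4 counts in wild-type, *dla* had passed the filter through the mutant libraries alone. On log2(TPM + 0.5), with its larger offset relative to so low a gene, the difference was 1.13. *dll4* (ENSDARG00000070425), the Delta ligand best known from sprouting blood vessels and also made in developing neurons, was the most abundant Delta gene in wild-type retinas. It had 8.33, 9.82, 13.2 and 9.10 CPM in mutants against 21.2, 25.6, 19.5 and 28.2 CPM in wild-type. All mutant values lay below all wild-type values, and *dll4* fell by 1.22 on the log2 scale (SE 0.16, adjusted p = 4.4e-05).

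In TPM, values scaled to transcript length that allow levels of different genes to be set side by side, *dll4* made up 35 ± 6.97% of the signal summed over the 4 tested Delta genes in mutants and 70.1 ± 5.26% in wild-type (SD, n = 4 each). Summed over all 5 Delta genes, *dlb* included, the signal was 8.33 ± 1.43 TPM in mutants and 8.68 ± 0.987 TPM in wild-type. The other Delta genes were not called. *dlc* had 3.27 to 6.07 CPM in mutants and 2.53 to 3.98 CPM in wild-type, with a log2 fold change of 0.58 and a 95% interval of -0.01 to 1.18. *dld* had 2.06 to 3.08 CPM in mutants and 0.625 to 2.27 CPM in wild-type (log2 fold change 0.84, edgeR adjusted p = 0.138), and was called only when wild-type 4 was left out (1.24, adjusted p = 0.0488). *dlb* did not pass the filter, with 16, 26, 12 and 6 counts in mutants and 3, 4, 3 and 6 counts in wild-type. Scaled for depth, these were 1.65, 2.5, 1.04 and 0.803 CPM in mutants and 0.497, 0.5, 0.366 and 0.758 CPM in wild-type. The *dlb* ranges did not overlap, although mutant 4 and wild-type 4 nearly met. Of 10 tested endothelial genes, 3 were called, close to the 28.1% of all tested genes: *pecam1* (log2 fold change 1.19), *fli1b* (2.52) and *vwf* (0.99), all higher in mutants. Of these, *fli1b* had 2, 9, 2 and 5 counts in wild-type and passed the filter through the mutant libraries alone. The summed level of the list was 158 to 176 CPM in mutants and 130 to 157 CPM in wild-type, and its most abundant wild-type gene *cdh5*, which marks endothelial junctions, had 53.9 ± 2.16 CPM in mutants and 59.6 ± 5.29 CPM in wild-type (SD, n = 4 each), without a call. The part of endothelial cells in the fall of *dll4* was not tested.

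Of the 4 Jagged genes, 3 rose and none fell. *jag1a* (ENSDARG00000030289) had the largest fold change of all 29 tested genes, with 8.85, 9.53, 4.61 and 4.68 CPM in mutants and 1.99, 0.625, 1.22 and 0.758 CPM in wild-type. Mutants 1 and 2 were near 9 CPM, mutants 3 and 4 near 5 CPM, and the lowest mutant was still above the highest wild-type library. The log2 fold change was 2.63 ± 0.38 (SE, adjusted p = 8.07e-05), and 1.55 on log2(TPM + 0.5). With 12, 5, 10 and 6 counts in wild-type, *jag1a* was not among the members with 10 counts in each library. Its copy *jag1b* (ENSDARG00000013168) was called at a smaller fold change, with 14.2, 16.3, 14.7 and 18.1 CPM in mutants against 11.9, 12.3, 12.7 and 11.2 CPM in wild-type (log2 fold change 0.39 ± 0.13, adjusted p = 0.037). That call was fragile. It ended with the replicate number as a block (adjusted p = 0.0612), with DESeq2 (0.0616), in libraries thinned to equal depth (0.195), and without mutant 2 (0.086), mutant 4 (0.112), wild-type 1 (0.0647), wild-type 2 (0.0648), wild-type 3 (0.051) or wild-type 4 (0.0851).

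*jag2b* (ENSDARG00000021389) was the most abundant Jagged gene, making up 54.1 ± 7.09% of Jagged TPM in mutants and 53.4 ± 5.44% in wild-type. It had 28, 25.6, 35.1 and 34.6 CPM in mutants and 18.6, 17.9, 23.9 and 25.5 CPM in wild-type. The groups did not overlap, although mutant 2 and wild-type 4 nearly met, and the log2 fold change was 0.52 ± 0.14 (SE, adjusted p = 0.0116). On the TPM values this call was lost, with adjusted p between 0.0539 and 0.0842. *jag2a* leaned the other way without being called, with 0.957 to 2.21 CPM in mutants and 1.71 to 3.41 CPM in wild-type (log2 fold change -0.74, 95% interval -1.50 to 0.02). Summed Jagged signal was 15.7 ± 1.48 TPM in mutants and 10.8 ± 0.814 TPM in wild-type (SD, n = 4 each).

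Among the receptors, *notch1a*, *notch1b* and *notch2* rose, and *notch3* was not called. *notch2* (ENSDARG00000043130) had 62.9, 64.6, 47.0 and 59.7 CPM in mutants and 17.2, 10.4, 11.2 and 11.9 CPM in wild-type. The gap between the genotypes was several times the spread within either, and *notch2* rose by 2.22 ± 0.15 on the log2 scale, or 4.66-fold (adjusted p = 1.2e-07). *notch1a* (ENSDARG00000103554) had 23.5, 20.5, 19.8 and 19.7 CPM in mutants and 13.6, 12.4, 8.42 and 10.1 CPM in wild-type, again without overlap (log2 fold change 0.92 ± 0.15, adjusted p = 2.61e-04). Its copy *notch1b* (ENSDARG00000052094), known in zebrafish from arteries and heart, rose by a like amount. It had 43.7, 39.6, 35.7 and 41.5 CPM in mutants and 26.5, 26.3, 20.1 and 20.6 CPM in wild-type (log2 fold change 0.78 ± 0.12, adjusted p = 9.91e-05). All 3 rises were called under each of the 19 alternative settings.

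*notch3* (ENSDARG00000052139), the receptor that restrains Müller glia from dividing in the zebrafish retina, had 60.1, 56.8, 50.5 and 57.4 CPM in mutants and 64.7, 59.7, 57.7 and 58.9 CPM in wild-type. The ranges overlapped. The log2 fold change was -0.10 with a 95% interval of -0.27 to 0.07 (edgeR adjusted p = 0.407). With library totals the estimate was 0.00.

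The make-up of receptor RNA differed between the genotypes. *notch3* gave 26.3 ± 0.589% of summed receptor TPM in mutants and 48.2 ± 2.9% in wild-type, and *notch2* gave 31.9 ± 2% in mutants and 11.7 ± 1.88% in wild-type (SD, n = 4 each). By TPM, the leading receptor was *notch2* in every mutant library and *notch3* in every wild-type library. In mutant 3 the lead was narrow, with 7.82 TPM for *notch2*, 7.60 TPM for *notch1b* and 7.21 TPM for *notch3*. The *notch1b* share was 28 ± 0.83% in mutants and 27.7 ± 1.97% in wild-type, and that of *notch1a* was 13.8 ± 1.01% in mutants and 12.4 ± 1.4% in wild-type. Summed receptor signal was 34.2 ± 5.97 TPM in mutants and 19.6 ± 1.99 TPM in wild-type.

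**Figure D3:**
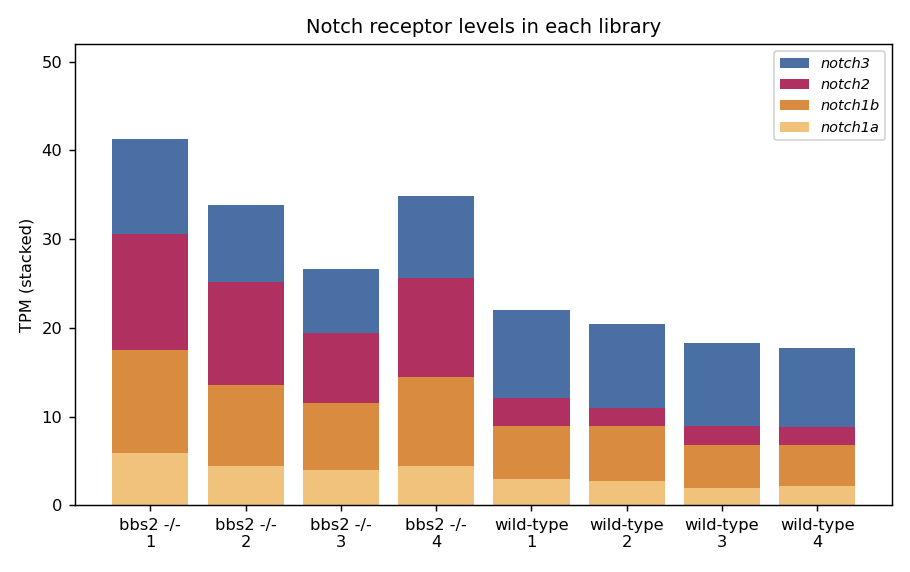
Stacked TPM of the 4 Notch receptors in each library, 4 *bbs2* -/- libraries on the left and 4 wild-type libraries on the right. Sums ran between 26.6 and 41.2 TPM in mutants and between 17.7 and 22 TPM in wild-type, with *notch2* the segment that differed most.

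The part of other cell types in these receptor levels was not tested. Of 12 tested Müller glia genes, 5 were higher and 2 lower in mutants (against 15.2% and 13.0% of all tested genes). Their sums were 1700 to 1740 CPM in mutants and 1650 to 2120 CPM in wild-type. The log2 fold changes were 1.08 for *fabp7a*, 1.08 for *rgra*, 0.92 for *sox9b*, 0.59 for *glulb* and 0.57 for *sox9a*, against -0.29 for *slc1a2b* and -0.50 for *cahz*. The glial enzyme gene *glula*, the largest single part of these sums, had 814 ± 23.9 CPM in mutants and 960 ± 182 CPM in wild-type, without a call. None of 5 tested mural cell genes was called, and *pdgfrb*, the pericyte receptor gene, had 93.5 ± 4.09 CPM in mutants and 86.9 ± 13.2 CPM in wild-type. The pigment epithelium and microglia lists were both higher in mutants as given above, as was *notch2*. Most dividing-cell genes were higher in mutants too, 11 of 13 tested, where 15.2% of all tested genes were called higher. Their sums were 79.4 to 123 CPM in mutants and 36.5 to 52.4 CPM in wild-type. The most abundant of them, *pcna*, was not called, at 24.3 ± 2.06 CPM in mutants and 23.1 ± 3.64 CPM in wild-type. *cdk1*, with 73 counts in all mutants and 7 in all wild-type libraries, passed the filter through the mutant libraries alone. So did *mcm2* (123 counts in all mutants and 18 in all wild-type libraries) and *mcm5* (87 and 16). In the pigment epithelium list, *tyr* (283 and 15) passed it in that way too.

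Of the 3 Fringe genes, 2 rose. *mfng* (ENSDARG00000042925), the Manic Fringe gene, had 4.63, 5.49, 4.44 and 3.75 CPM in mutants and was barely detected in wild-type retinas, at 0.332, 0.876, 0.854 and 1.14 CPM. Mutants were uniform and well apart from wild-type, and the log2 fold change was 2.46 ± 0.34 (SE, adjusted p = 5.61e-05). With 2, 7, 7 and 9 counts in wild-type, *mfng* had passed the filter through the mutant libraries alone. *rfng* (ENSDARG00000019746), the Radical Fringe gene, had 16.8, 17.8, 16.5 and 15 CPM in mutants and 9.12, 12.1, 9.88 and 11.4 CPM in wild-type (log2 fold change 0.63 ± 0.14, adjusted p = 0.00236).

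*lfng*, Lunatic Fringe, was the most abundant of the family, at 72.9 ± 2.87% of Fringe TPM in mutants and 86.1 ± 4.23% in wild-type. Its CPM were 51.7, 51.6, 56.2 and 56.3 in mutants and 58.7, 41.9, 69.5 and 69.0 in wild-type. Wild-type 2 stood below all mutants and the other wild-type libraries above them. The log2 fold change was -0.15 (95% interval -0.44 to 0.14, edgeR adjusted p = 0.46), and leaving out wild-type 2 turned this into a called decrease (-0.29, adjusted p = 0.0311).

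Of the nuclear partners, *maml3* fell, and *maml1* and *rbpja* rose by small amounts. *maml3* (ENSDARG00000079552), a Mastermind-like coactivator, had 53.5, 48.8, 47.0 and 49.9 CPM in mutants and 81.4, 81.6, 63.8 and 77.5 CPM in wild-type. The genotypes were apart, and *maml3* fell by 0.61 on the log2 scale (SE 0.09, adjusted p = 1.07e-04). *maml1* (ENSDARG00000076466), of the same family, had 20.5, 14.0, 17.9 and 17.7 CPM in mutants and 14.4, 11.8, 13.2 and 11.0 CPM in wild-type, with mutant 2 inside the wild-type range (log2 fold change 0.48 ± 0.15, adjusted p = 0.0224). The *maml1* call ended on TPM values and without mutant 1 (adjusted p = 0.0801), mutant 4 (0.0503), wild-type 2 (0.0601) or wild-type 4 (0.0642).

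RBPJ is the DNA-binding partner of all Notch receptors. *rbpja* (ENSDARG00000003398) had 28.9, 27.3, 24.8 and 30.9 CPM in mutants and 19.1, 18.5, 27.3 and 20.6 CPM in wild-type, where wild-type 3 reached the mutant range. Its log2 fold change was 0.38 ± 0.13 (adjusted p = 0.0396), and the call was lost with DESeq2 (0.0562), on TPM values and without mutant 1 (0.0851), mutant 2 (0.0679), mutant 4 (0.115), wild-type 1 (0.102), wild-type 2 (0.119) or wild-type 4 (0.085). *rbpjb* had 21.9 to 27.1 CPM in mutants and 21.1 to 27 CPM in wild-type (log2 fold change 0.07, 95% interval -0.17 to 0.32). No read was counted for *rbpjl* in any library, which allows up to 3 counts, or 0.261 to 0.497 CPM depending on depth. This floor covers counting error only.

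The cytoplasmic regulators carried the highest levels of the set, and among them *dtx4a* fell the most. Deltex genes encode ubiquitin ligases that act on Notch receptor trafficking. *dtx4a* (ENSDARG00000076302) had 135, 162, 177 and 159 CPM in mutants and 241, 311, 305 and 306 CPM in wild-type. All mutants were below wild-type 1, which was itself well below the other wild-type libraries, and *dtx4a* fell by 0.88 on the log2 scale (SE 0.10, adjusted p = 6.52e-06). The copy *dtx4b* (ENSDARG00000078016) had 30.7, 28.9, 29.9 and 29.8 CPM in mutants and 25.9, 21.0, 24.6 and 24.6 CPM in wild-type, a small rise (log2 fold change 0.31 ± 0.10, adjusted p = 0.0269). Its call was lost on TPM values and without mutant 1 (0.0629), mutant 4 (0.0539) or wild-type 2 (0.092).

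*dtx2* (ENSDARG00000032933) had 85.4, 87.0, 82.4 and 82.5 CPM in mutants and 90.0, 108, 97.8 and 105 CPM in wild-type, so that the ranges were apart by a narrow margin. It fell by 0.25 on the log2 scale (SE 0.07, adjusted p = 0.0202). That call did not hold with library totals (-0.15, adjusted p = 0.203), on TPM values, or without mutant 3 (0.0584), mutant 4 (0.0537), wild-type 2 (0.0652) or wild-type 4 (0.052). *numbl*, one of 2 Numb-type adaptors that promote removal of Notch from the membrane, was the most abundant gene of the whole set at 113 ± 10.3 TPM in mutants and 122 ± 12.2 TPM in wild-type (SD, n = 4 each), and was not called (log2 fold change -0.13, 95% interval -0.32 to 0.06). *numb* had 50.1 to 57.1 CPM in mutants and 56.0 to 68.3 CPM in wild-type (log2 fold change -0.19, edgeR adjusted p = 0.112). *dtx4a* followed *numbl* in abundance, at 53.4 TPM in mutants and 97.4 TPM in wild-type on average, and *dtx2* came next at 37.8 TPM in mutants and 44.1 TPM in wild-type. Most cone genes were lower in mutants, as was *dtx4a*: 11 of 14 tested cone genes were called lower, where 13.0% of all tested genes were. The 2 that were higher were the opsins *opn1lw1* (log2 fold change 0.99) and *opn1mw3* (1.61). Cone sums were 8280 to 9820 CPM in mutants and 16800 to 17900 CPM in wild-type. The part of cones in the Deltex levels was not tested.

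Where the genome holds an a and a b copy of a gene, the ratio of the copies was compared between genotypes. This comparison was added after the data were seen, with the fold change of each copy known. In each library the log2 ratio of the CPM of the a copy to that of the b copy was taken for the 5 such pairs with both members tested. Only the difference of this ratio between genotypes was read, because the copies differ in length. For *jag1a* over *jag1b* the ratio was -1.27 ± 0.64 in mutants and -3.54 ± 0.74 in wild-type (SD, n = 4 each), a difference of 2.27. For *dtx4a* over *dtx4b* it was 2.40 ± 0.18 in mutants and 3.59 ± 0.28 in wild-type, a difference of -1.19. Both pairs gave p = 0.0286 in an exact two-sided permutation test, the smallest p that 70 arrangements allow, and 0.0715 after Benjamini-Hochberg adjustment over the 5 pairs. With only these pairs at the smallest p, the adjusted value could not be under 0.0715, so the adjusted test cannot decide. In both, the 4 mutant libraries were apart from the 4 wild-type libraries, which is what the smallest p means and is no further support. The difference was -1.29 for *jag2a* over *jag2b* (exact permutation p = 0.0571, adjusted 0.0952), 0.14 for *notch1a* over *notch1b* (p = 0.114, adjusted 0.143) and 0.33 for *rbpja* over *rbpjb* (p = 0.143, adjusted 0.143).

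**Figure D4:**
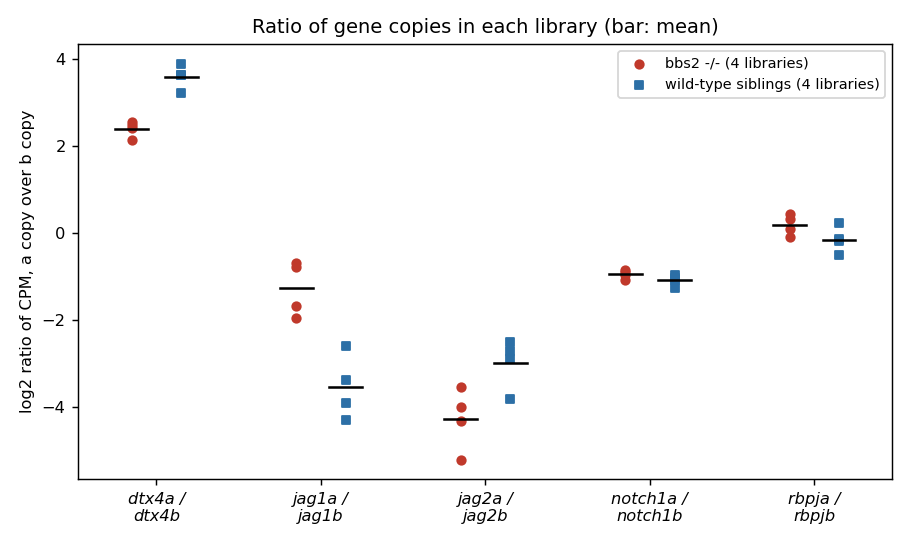
Log2 ratio of CPM of the a copy over the b copy in each library, *bbs2* -/- to the left of wild-type in each pair and the mean as a bar. The points of the genotypes were apart for *dtx4a* over *dtx4b* and *jag1a* over *jag1b* and overlapped for the other 3 pairs.

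The hairy family includes repressors through which Notch acts, and most of its genes were near or below detection in the adult retina. Whether the level of any *her* gene followed Notch activity was not tested. Of 19 *her* genes, 4 were tested, and *her9* was the one that rose. *her9* (ENSDARG00000056438), a relative of human HES4 that zebrafish need for normal photoreceptor development, had 9.46, 8.37, 7.83 and 9.90 CPM in mutants and 3.15, 1.63, 3.78 and 2.53 CPM in wild-type. The lowest mutant was above the highest wild-type library by a wide margin, and the log2 fold change was 1.68 ± 0.24, or 3.20-fold (SE, adjusted p = 7.81e-05).

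*her6*, the counterpart of human HES1, had 4.83, 5.29, 6.44 and 7.76 CPM in mutants and 6.80, 6.75, 8.54 and 1.90 CPM in wild-type. Wild-type 4 was far below its siblings. The log2 fold change was 0.02 with a wide interval of -0.74 to 0.77 (edgeR adjusted p = 0.982), and its sign turned without mutant 3 (-0.01), mutant 4 (-0.11) or wild-type 4 (-0.29, adjusted p = 0.374). The neighbouring copies *her15.1* and *her15.2*, genes of the Hes5 type, were low. *her15.1* had 1.75 to 3.08 CPM in mutants and 0.126 to 2.63 CPM in wild-type, the lowest again being wild-type 4 (log2 fold change 0.87, 95% interval -0.21 to 1.95). *her15.2* had 0.926 to 1.65 CPM in mutants and 0.976 to 1.99 CPM in wild-type (log2 fold change -0.08, 95% interval -0.94 to 0.77, and above 0 without mutant 1 or wild-type 1, at 0.03 and 0.14). The sources used here do not say how reads shared by such near-identical copies were counted, so the split between them is uncertain.

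*hey1* (ENSDARG00000070538), a target of Notch that is best known from blood vessels, went the other way to *her9*. It had 11.4, 14.0, 11.8 and 8.96 CPM in mutants and 32.7, 24.8, 23.4 and 11.1 CPM in wild-type. Wild-type 1 to 3 were above every mutant and wild-type 4 lay inside the mutant range, and *hey1* fell by 0.97 on the log2 scale (SE 0.29, adjusted p = 0.032). The call was lost with library totals (0.0535), with limma-voom (0.0874), with no filter on low counts (0.0847), on 3 TPM fits (0.0517 to 0.104), and without mutant 1 (0.0822), mutant 3 (0.0798), mutant 4 (0.0852), wild-type 1 (0.0513), wild-type 2 (0.0755) or wild-type 3 (0.067). *hey2* had 2 to 8 counts in mutants and 2 to 7 counts in wild-type, and *heyl* had 3 counts in mutant 4 and none elsewhere.

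**Figure D5:**
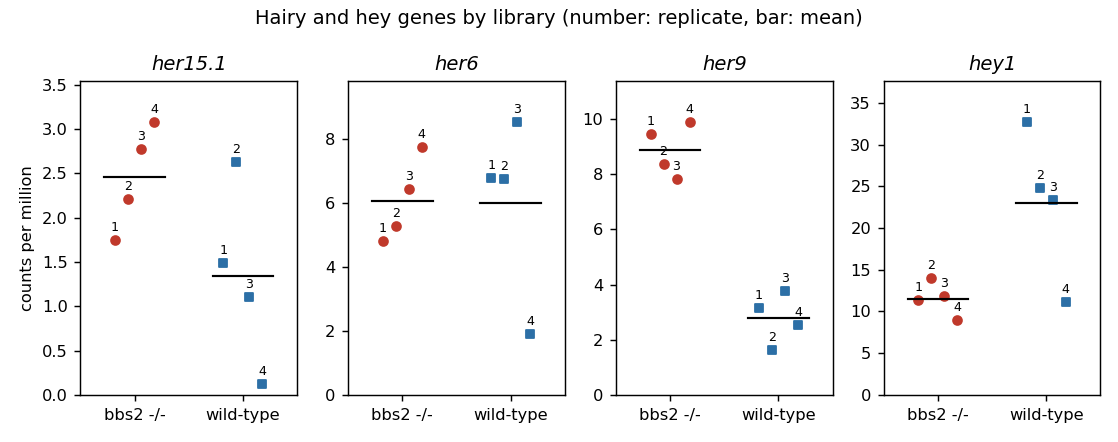
CPM of *her6*, *her9*, *her15.1* and *hey1* in each library, *bbs2* -/- left of wild-type, with replicate numbers and the mean as a bar. *her9* was 7.83 to 9.90 CPM in mutants and 1.63 to 3.78 CPM in wild-type, and wild-type 4 was the lowest wild-type library for *her6*, *her15.1* and *hey1*.

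The remaining 15 *her* genes were not tested, and none exceeded 10 counts in a library. The neighbouring *her4* genes, the classical Notch targets of zebrafish neural progenitors, were among them. *her4.1* had 1, 5, 2 and 0 counts in mutants and 0 in each wild-type library. The *her4.2* gene ENSDARG00000094426 had 2, 9, 1 and 4 counts in mutants and 2, 3, 3 and 0 counts in wild-type. *her4.4* had 0, 2, 5 and 0 counts in mutants and 5, 1, 1 and 0 counts in wild-type, *her12* had 1 to 7 counts in mutants and 4 to 7 counts in wild-type, and *her4.3* had none. Segmentation clock genes were as sparse, with *her1* at 0 counts in mutants and at most 2 in wild-type, and *her7* at up to 4 counts in either genotype. *her11* reached 10 counts in mutant 1 and 0 to 2 in the other libraries. *her3* and *her8.2* had no count. At this depth no difference in these genes was detectable.

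Beyond the set, 5 further lists of Notch pathway genes held 63 tested genes, of which 11 rose and 8 fell, or 30.2% called, close to the 28.1% of all genes. Their median log2 fold change was -0.04, against -0.01 over all genes. The list of ligand endocytosis and receptor turnover had 4 decreases and no increase among 13 tested genes. Over all tested genes, 13.0% were called lower and 15.2% higher in mutants. *neurl1aa* and *neurl1b*, Neuralized-type ubiquitin ligases that act on Delta, fell by 0.91 (SE 0.09, adjusted p = 1.17e-06) and 0.79 (SE 0.18, adjusted p = 0.00301) on the log2 scale. *itchb*, of a ubiquitin ligase family that targets Notch, fell by 0.49, and the endocytic kinase gene *aak1a* by 0.64.

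Receptor processing showed 3 increases and 1 decrease among 13 tested genes, all small, against 15.2% and 13.0% of all tested genes. *furina*, a convertase that cleaves the receptor precursor, had a log2 fold change of 0.42 ± 0.08 (SE, adjusted p = 6.04e-04), and the γ-secretase gene *psen2* had 0.32. The *psen2* call was lost without mutant 2 (edgeR adjusted p = 0.0748) or wild-type 3 (0.0629). *adam17b*, a sheddase, fell by 0.28 (adjusted p = 0.0268), and lost its call without mutant 2 (0.0594), mutant 4 (0.0869), wild-type 2 (0.0796) or wild-type 4 (0.0506). Among 19 nuclear cofactors, *hdac1* (0.35), *tle2a* (0.41), *tle2b* (0.41) and *ctbp2a* (0.20) rose on the log2 scale and *kat2b* (-0.34) was among the 2 that fell. The shares of all tested genes are again 15.2% higher and 13.0% lower. *ctbp2a* was no longer called without mutants 1, 2 or 4 or wild-type 1, 2 or 3 (edgeR adjusted p 0.0531 to 0.0961), and *adam17b* was not called with library totals (0.193).

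Of 8 other hairy-related and Id genes tested, only *bhlhe40*, a repressor tied to the circadian clock, was called, against 28.1% of all tested genes. It had 468 ± 81.5 CPM in mutants and 781 ± 185 CPM in wild-type (SD, n = 4 each; log2 fold change -0.74, edgeR adjusted p = 0.0239), and lost its call without mutant 3 (0.0683) or mutant 4 (0.0587) and with library totals (0.0649). A list of proneural and related genes, some of which *her* repressors hold down, had 4 increases and no decrease among 10 tested. Of all tested genes, 15.2% were called higher. The most abundant of the list were not called. *neurod1* had 787 ± 84.1 CPM in mutants and 802 ± 91.6 CPM in wild-type, and *neurod4* had 131 ± 5.98 and 139 ± 9.52 CPM. With 10 counts required in each library only *insm1a* remained called, and *ascl1a* had passed the filter through the mutant libraries alone. *ascl1a*, which Müller glia need for regeneration, had 4.83, 2.7, 2 and 4.15 CPM in mutants and 0, 0.250, 0.366 and 0.253 CPM in wild-type, or 129 counts in all mutants and 7 in all wild-type libraries (log2 fold change 3.80 ± 0.54, adjusted p = 6.91e-05). *insm1a* encodes a transcriptional repressor that acts within the same regeneration programme. It had 26.5, 18.4, 15.7 and 24.3 CPM in mutants and 10.1, 5.50, 7.44 and 8.21 CPM in wild-type (log2 fold change 1.45 ± 0.20, edgeR adjusted p = 8.81e-05). Both stood apart in every library. *olig2* (1.18) and 1 of 2 genes named *ascl1b* (1.27) rose by less certain amounts. *olig2* lost its call without mutant 1 (edgeR adjusted p = 0.0707), mutant 4 (0.0869), wild-type 3 (0.0723) or wild-type 4 (0.0615), and *ascl1b* without any library but wild-type 1 (0.0594 to 0.128). These genes are also expressed by dividing progenitors, most of whose marker genes rose as given above, and the part of these cells in the proneural levels was not tested.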

How the data were processed

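Total RNA of 8 retina samples (RNA integrity of at least 8.8) was depleted of ribosomal RNA and made into stranded libraries. The authors aligned reads to GRCz11 with STAR and deposited raw gene counts, on which all main tests rest, and TPM, used here for levels compared between genes. The deposited signal scaled by size factors and the authors' table of comparisons (fold changes and p-values made with DESeq2 1.30.1 in R 4.0.4) were not used. The sources used here do not say whether counting used strand. Genes passing filterByExpr (minimum count 10) were fitted with genotype in the edgeR 4.0.16 quasi-likelihood test with TMM scaling in R 4.3.3. The fit was tried on counts simulated from the means and dispersions of these same data. Changes were planted there only in genes with more counts, so the trial does not cover changes in genes with few counts. Adjusted p-values run over all tested genes and log2 fold changes are mutant over wild-type. DESeq2 1.42.0 and limma 3.58.1 (voom, and log2 TPM with 0.5 or 0.1 added) were alternatives, with other scaling, filters and depths, a replicate block and each library left out. The ratios of gene copies were added after the data were seen. The members and lists were chosen with earlier results of these data known. Called members were given with all values; uncalled ones by range, with values for the most abundant; untested ones by counts; and list genes by smallest p, up to 4 in each direction. Of the list symbols, 4 were not matched. Some called list genes are counted but not reported here by name. All 48 members matched the zebrafish reference gene table, which is of another assembly, so no coordinates are given, and no sequences were used. The labels call the samples biological replicates. Replicates differed by more than sampling noise (chi-square per degree of freedom 5.44 to 12.6).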

Additional observations from a re-analysis of the deposited data

Results flagged for a closer look

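Among 58 groups of 4 libraries (the 29 tested genes in each genotype), 1 held a library far from the rest. Wild-type 1 had 241 CPM of *dtx4a*, against 305 to 311 CPM in the other wild-type libraries, a gap of 0.905 of the group's range that passed Dixon's 95% limit for 4 values. By chance about 1 in 20 groups would pass it. The fall of *dtx4a* in mutants was called with this library and without it (log2 fold change -0.88 and -0.96).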

How the results depend on the processing

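Of the 18 called members, 11 were called under every alternative that tested them. They were *dla*, *dll4*, *jag1a*, *notch1a*, *notch1b*, *notch2*, *mfng*, *rfng*, *maml3*, *dtx4a* and *her9*. Among them, *dla*, *jag1a* and *mfng* were not tested where a minimum count was required in each library, because their wild-type counts were too low. That setting therefore says nothing about the calls of *dla*, *jag1a* and *mfng*. On TPM, with either offset and with or without the filter, 11 members were called, 8 higher and 3 lower. With library totals 3 members were lower. Leaving out 1 library gave 3 to 5 members lower and 12 to 16 called in all. The further pathway lists held 9 called genes on unfiltered log2(TPM + 0.5), against 19, and the increases were then 65.2% of all calls, against 54%; the cause was not tested. Signs turned for uncalled members: *notch3* was 0.00 and *her15.2* was 0.01 with library totals, *her6* was -0.02 in thinned libraries, and with 1 library left out *her6* ran -0.29 to 0.24 and *her15.2* -0.22 to 0.14. Same-numbered libraries did not deviate together (correlations -0.07 to 0.06), so the numbers were not taken as pairs; a replicate block left 17 members and 4759 genes called, 12 members higher and 5 lower, and 18 genes of the further lists. The main fit did not test the genes with few counts, among them 15 *her* genes. With no filter on low counts 44 members were tested, and with DESeq2 36 were. Each of these fits called 16 members, all of them among the 18 of the main fit. At these depths a missing call says little about genes with so few counts.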
